A study of Homo sapiens with 27 samples.

Results

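The shRNA content of vehicle-treated UMSCC1 cells was compared with that of vehicle-treated UMSCC8 cells, both lines of head and neck squamous cell carcinoma (HNSCC) carrying the same pooled kinome shRNA library. An shRNA was compared where its counts over the 6 vehicle libraries of these lines came to 10 or more, which kept 3096 of the 3177 shRNAs listed. Of the 81 shRNAs below that minimum, 39 had 0 counts in all 6 libraries.

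The screen held 27 libraries in 9 groups of 3 plates, from UMSCC1, UMSCC8 and UMSCC25 cells treated with dimethylsulfoxide (DMSO, the vehicle), gefitinib or AZD8931. Gefitinib is a tyrosine kinase inhibitor (TKI) of the EGF receptor and AZD8931 is an inhibitor of several ErbB receptors. Each line was transduced with the MISSION TRC1 human kinome lentiviral library, selected with puromycin and divided into plates, which received an agent for 72 hours and drug-free medium for the next 72 hours. The groups compared were 3 plates of UMSCC1 cells with DMSO and 3 plates of UMSCC8 cells with DMSO, and all 6 shared the library, the puromycin selection and the times.

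In a pooled shRNA screen each integrated lentiviral cassette stays in the genome of the cell that received it, so that the cassettes amplified from genomic DNA report how many descendants of each transduced cell are present. An shRNA that slows growth in a line tends to become rare in the pool, and one that favours growth or survival tends to become common. The starting number of transduced cells per shRNA, the packaging of each clone and drift during culture also set its share. Kinases, the enzymes targeted by such a library, include the growth factor receptors that drive proliferation in many HNSCC lines.

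The plates of a line were divided from the transduced cells of that line, and the sources used here do not say whether its transduction plates were pooled first. The p-values below therefore measure the spread between plates, which may be technical. A difference that arose when a line was transduced or selected cannot be told apart from one that arose from the growth of that line. The starting plasmid or virus pool was not analysed here. The count data used here pair no clone identifier with a gene. The paper pairs 6 identifiers with TGFBR1 or TGFBR2. The other shRNAs are therefore described by their counts, and only a few by identifier.

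Total counts were 460879, 258742 and 491217 in UMSCC1 replicates 1 to 3, against 427180, 410641 and 506971 in UMSCC8 replicates 1 to 3. The median shRNA had 63, 28 and 73 counts in the UMSCC1 libraries and 66, 67 and 83 counts in the UMSCC8 libraries. Levels are given as CPM, the count brought to a common library size and composition. A count of 0 allows up to 3 counts, or between 5.87 and 14.4 CPM in UMSCC1 and between 5.38 and 6.56 CPM in UMSCC8. UMSCC1 replicate 2 was the shallowest library, and UMSCC8 replicate 1 stood apart from its group in the measures below.

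The number of undetected shRNAs differed more among the UMSCC8 plates than between the means of the lines. When every library was brought to the total count of the shallowest, 196, 205 and 221 of the 3177 shRNAs had no count in UMSCC1 replicates 1 to 3, against 379, 104 and 95.5 in UMSCC8 replicates 1 to 3. The UMSCC1 plates thus lay between UMSCC8 replicate 1 and the other UMSCC8 plates. The mean was 207 ± 12.3 in UMSCC1 and 193 ± 161 in UMSCC8 (SD, n = 3 each), and p was 1 in a two-sided exact permutation test, for which 3 plates against 3 can give no p below 0.1. Without UMSCC8 replicate 1 the difference of UMSCC1 minus UMSCC8 was 108 shRNAs, and without UMSCC8 replicate 2 or 3 it was -29.7 or -33.8.

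The counts of the UMSCC1 plates were spread over fewer shRNAs, by a difference that 3 plates against 3 could not bring past the threshold. The effective number of shRNAs, the exponential of the Shannon entropy of their shares, was 919, 482 and 894 in UMSCC1 replicates 1 to 3, against 995, 1030 and 1023 in UMSCC8 replicates 1 to 3. Every UMSCC1 plate lay below every UMSCC8 plate, by far the most in replicate 2. The mean was 765 ± 245 in UMSCC1 and 1016 ± 18.5 in UMSCC8 (SD, n = 3 each; two-sided exact permutation test, p = 0.1, which is the lowest this design allows). Without UMSCC1 replicate 2 the difference was -109, against -251 with all plates.

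The most abundant shRNAs accounted for part of each library. The 100 most abundant shRNAs of each library took 35.8%, 46.8% and 36.2% of the counts in UMSCC1 replicates 1 to 3, against 34.2%, 34.1% and 34.2% in UMSCC8 replicates 1 to 3 (two-sided exact permutation test, p = 0.1). The 10 most abundant took between 19.2% and 31.8% in UMSCC1, and between 19.0% and 20.3% in UMSCC8, so that this measure overlapped between the lines (two-sided exact permutation test, p = 0.4). A single shRNA of UMSCC1 replicate 2 held 14.0% of that library, which is the largest share of any shRNA in the 6 libraries.

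The libraries were led by 3 identifiers, which were chosen for naming after their values were seen. TRCN0000121186, the leading shRNA of all 3 UMSCC8 plates and of UMSCC1 replicate 3, had 42270, 45423 and 59593 CPM in UMSCC1 replicates 1 to 3, against 46193, 43416 and 56562 CPM in UMSCC8. Its levels overlapped between the lines. TRCN0000000370 led UMSCC1 replicate 1, with 66014, 57160 and 56470 CPM in UMSCC1 against 29157, 34525 and 39844 CPM in UMSCC8. Its UMSCC1 plates were all above its UMSCC8 plates. The log2 fold change of 0.78 (SE 0.20) did not pass the test (adjusted p = 0.0790, edgeR's quasi-likelihood test). Over the alternatives its adjusted p was 0.0191 (DESeq2) to 0.296 (edgeR without UMSCC8 replicate 1). It passed with DESeq2, with limma-voom and in the edgeR fit of 27 libraries only. On the gefitinib plates the same shRNA had a log2 fold change of 0.94 and passed (edgeR, adjusted p = 0.00524), and on the AZD8931 plates it was 0.70 and did not (adjusted p = 0.168).

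The third of these shRNAs was high in 1 plate. TRCN0000000366 had 20425, 174079 and 25327 CPM in UMSCC1 replicates 1 to 3, against 23312, 20910 and 20178 CPM in UMSCC8 replicates 1 to 3. UMSCC1 replicate 2 stood far above the other 5 libraries, which lay close together. The log2 fold change of 1.76 (SE 0.70) did not pass the test (adjusted p = 0.258, edgeR), and it was 0.08 without UMSCC1 replicate 2. Over the alternatives the adjusted p was 0.0117 to 0.921, and it passed only in the fits that held 18 or 27 libraries. On the gefitinib plates this shRNA was lower in UMSCC1, with 16627, 20504 and 16678 CPM in UMSCC1 against 35553, 27130 and 42741 CPM in UMSCC8 (log2 fold change -0.96, edgeR adjusted p = 0.00658).

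The correlation between plates was mostly higher within a line than between the lines, and it was lowest where UMSCC8 replicate 1 was involved. Over the 3096 shRNAs, log2(CPM + 10) correlated at r = 0.818 to 0.859 between UMSCC1 plates and at r = 0.873 between UMSCC8 replicates 2 and 3. UMSCC8 replicate 1 correlated with its own replicates at r = 0.760 and 0.770, and with the UMSCC1 plates at r = 0.678 to 0.694. Between the lines r was 0.678 to 0.827, with a median of 0.762, over 9 pairs of libraries. Each DMSO library also correlated more closely with the inhibitor plates of its own line, at a median r of 0.746 to 0.880, than with those of the other line, at 0.663 to 0.800. These correlations describe shRNAs of 1 shared pool, whose different starting abundances raise every r. No replicate pair agreed within sampling noise, since the chi-square statistic per degree of freedom was at least 10.3 for every pair of plates.

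For the typical shRNA, the difference between the line means was of a size similar to the SD of single plates. These are unlike measures, since a mean of 3 plates varies less than a single plate. The median shRNA had an SD between plates of 0.57 on the log2 scale in UMSCC1 and 0.50 in UMSCC8, and the line means differed by a median of 0.57. For UMSCC8 replicates 2 and 3 alone the median SD was 0.29. The biological coefficient of variation fitted by edgeR, a measure of spread beyond counting error, was 0.517 in UMSCC1 and 0.568 in UMSCC8, where it was 0.359 for replicates 2 and 3.

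Of the 3096 shRNAs, 10 were higher and 35 were lower in UMSCC1 than in UMSCC8 at an adjusted p under 0.05 (edgeR's quasi-likelihood test with Benjamini-Hochberg adjustment), which is 0.323% and 1.13% of those tested. At an unadjusted p under 0.05, 255 were higher and 256 lower. The median log2 fold change over all shRNAs was -0.01, and the median level was 155 CPM in UMSCC1 and 158 CPM in UMSCC8. The composition scaling centres the fold changes near 0, so that the median follows from it. It does not fix the balance of the unadjusted counts. With the same scaling these were 389 higher and 431 lower on the gefitinib plates, and 446 higher and 546 lower on the AZD8931 plates. Scaling by total counts alone gave 3 higher and 46 lower and moved the median of all shRNAs to -0.21. The lower calls were then 93.9% of all calls, against 77.8% with the composition scaling.

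The number of calls depended on single plates. Without UMSCC1 replicate 1, 2 or 3 there were 1, 0 and 5 shRNAs called higher and 8 called lower each time. Without UMSCC8 replicate 2 there were 1 higher and 14 lower, and without UMSCC8 replicate 3 there were 0 higher and 2 lower, while leaving out UMSCC8 replicate 1 gave 7 higher and 35 lower, among which 29 of the 45 remained called.

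The called shRNAs separated the plates. Each of the 45 had no overlap between the 3 UMSCC1 and the 3 UMSCC8 plates, and 41 had at least 1 count in all 6 libraries. Over all tested shRNAs, every UMSCC1 plate was above every UMSCC8 plate for 369 shRNAs (11.9%) and below for 404 (13.0%), so that most shRNAs without overlap were not called.

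The 10 shRNAs higher in UMSCC1 differed by smaller factors than those lower in UMSCC1. Their log2 fold changes were 1.12 to 2.67 with a median of 1.64, and 3 exceeded 4-fold. Their mean levels were 230.3 to 7128 CPM in UMSCC1 (median 1146) and 35.9 to 3243 CPM in UMSCC8 (median 297). The lowest UMSCC1 plate was 1.53 to 2.58 times the highest UMSCC8 plate. All 10 were counted in all 6 libraries. Of the 10, 9 were among the 774 most abundant of the shRNAs tested, against 13 of the 35 called lower. The median SE was smallest there (0.37), so that smaller changes could pass. The fold changes of the groups are thus set side by side at unlike abundance.

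The 35 shRNAs lower in UMSCC1 had a median log2 fold change of -2.75, and the smallest change among them was -1.16. Of these, 26 exceeded 4-fold and 13 exceeded 8-fold. Their mean levels were at most 6393 CPM in UMSCC1 (median 48.2) and 73.5 to 14179 CPM in UMSCC8 (median 439). Among those counted in UMSCC1, the lowest UMSCC8 plate was 1.59 to 27.5 times the highest UMSCC1 plate. The median of this ratio over all 35 was 3.49. Their UMSCC1 levels therefore reached down to a few counts per library, and 31 of the 35 were counted in all 6 libraries.

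Large fold changes and calls fell at different abundances. When the 3096 shRNAs were ordered by mean CPM and divided into 4 groups of 774, the least abundant group held 153 shRNAs that differed by over 4-fold and 2 calls, both lower in UMSCC1. The most abundant group held 7 over 4-fold and 22 calls, of which 9 were higher and 13 lower in UMSCC1. The median SE of the log2 fold change was 1.21 in the least abundant group and 0.37 in the most abundant. Of the 225 shRNAs that differed by over 4-fold (7.27%), 51 higher and 174 lower in UMSCC1, 29 were called, and 19 had 1 of the lines at 0 in all plates. A 4-fold difference of a rare shRNA was thus mostly not detectable at this depth and spread.

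The largest change among the shRNAs called higher in UMSCC1 was that of TRCN0000000793. It had 134, 25 and 140 counts in UMSCC1 replicates 1 to 3, or 297, 120.2 and 274 CPM, against 14, 14 and 26 counts in UMSCC8 replicates 1 to 3, or 30.4, 30.6 and 46.6 CPM. All UMSCC1 plates were above all UMSCC8 plates, with replicate 2 the lowest of UMSCC1. Its mean was 230.3 ± 96.1 CPM in UMSCC1 and 35.9 ± 9.28 CPM in UMSCC8 (SD, n = 3 each), a log2 fold change of 2.67 (SE 0.59, adjusted p = 0.0429, edgeR). It no longer passed when any 1 of the 6 plates was left out (edgeR adjusted p of 0.0575 to 0.160), with total-count scaling (0.0632) or with limma-voom (0.110). On plates with the inhibitors the log2 fold change was 3.39 with gefitinib (SE 0.51, edgeR adjusted p = 0.000319) and 1.84 with AZD8931 (SE 0.62, adjusted p = 0.0669). UMSCC25 cells with DMSO had 106 ± 28.6 CPM (SD, n = 3).

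TRCN0000007051 had the next largest change among the shRNAs called higher in UMSCC1. Its levels were 720.3, 1495 and 723 CPM in UMSCC1 replicates 1 to 3, against 104, 282 and 279.7 CPM in UMSCC8 replicates 1 to 3. All UMSCC1 plates were above all UMSCC8 plates, although UMSCC1 replicate 2 and UMSCC8 replicate 1 each stood apart from their group. The log2 fold change was 2.12 (SE 0.45, adjusted p = 0.0386, edgeR), and leaving out 1 plate at a time gave adjusted p-values of 0.0490 to 0.178, of which the one without UMSCC8 replicate 1 passed. The change was 2.24 with gefitinib (SE 0.31, edgeR adjusted p = 0.000136) and 2.50 with AZD8931 (SE 0.38, adjusted p = 0.00642), so that this shRNA was called on both sets of plates. UMSCC25 cells with DMSO had 591 ± 156 CPM (SD, n = 3).

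TRCN0000007073 had the largest change among shRNAs that were called lower in UMSCC1 and counted in all 6 libraries. It had 2, 1 and 6 counts in UMSCC1 replicates 1 to 3, against 79, 36 and 115 counts in UMSCC8 replicates 1 to 3. The UMSCC1 plates were all near the floor of detection and far below the UMSCC8 plates. Its 9 counts over the UMSCC1 plates did not reach the minimum of 10. It thus passed that minimum only with the counts of UMSCC8, and its values are given as a description. Its mean was 6.99 ± 4.11 CPM in UMSCC1 and 152 ± 65.9 CPM in UMSCC8 (SD, n = 3 each), a log2 fold change of -4.32 (SE 0.85, adjusted p = 0.0316, edgeR). Without 1 of the UMSCC1 plates, or without UMSCC8 replicate 3, it no longer passed (edgeR adjusted p of 0.0595 to 0.187), nor did it with limma-voom (0.122). With gefitinib it had 1, 10 and 1 counts in UMSCC1 against 75, 92 and 22 in UMSCC8 (log2 fold change -4.06, edgeR adjusted p = 0.00390). With AZD8931 it had 13, 5 and 14 counts in UMSCC1 against 16, 80 and 51 in UMSCC8 (-1.71, edgeR adjusted p = 0.128). In CPM, the UMSCC1 plates with AZD8931 all lay above the UMSCC1 plates with DMSO, and the change in the line difference between these agents did not pass (edgeR, adjusted p = 0.463). The mean of TRCN0000007073 in UMSCC25 cells with DMSO was 68.6 ± 29.1 CPM (SD, n = 3).

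TRCN0000000810 was the called shRNA with no count in UMSCC1. It had 0 counts in all 3 UMSCC1 plates, against 34, 44 and 28 counts in UMSCC8 replicates 1 to 3, or 73.5 ± 23.0 CPM (SD, n = 3). Relative to the floor of 3 counts over the UMSCC1 group it was at least 28.0-fold lower in UMSCC1. It passed the minimum of 10 counts only through UMSCC8, so that its direction was fixed and these values describe it. The other 34 of the 35 were counted in both lines, TRCN0000007073 with only 9 counts over the UMSCC1 plates. The call of TRCN0000000810 (adjusted p = 0.0492, edgeR) was lost without any 1 plate other than UMSCC8 replicate 1. It was also lost with a replicate block (edgeR, 0.0514) and with limma-voom (0.0679). The shRNA was present in the UMSCC1 pool, with 7, 21 and 10 counts in the UMSCC1 gefitinib plates, against 41, 55 and 20 in the UMSCC8 gefitinib plates (log2 fold change -1.85, edgeR adjusted p = 0.116). With AZD8931 it had 3, 3 and 2 counts in UMSCC1 against 33, 78 and 36 in UMSCC8 (-3.60, edgeR adjusted p = 0.0198). The mean of TRCN0000000810 in UMSCC25 cells with DMSO was 123 ± 36.5 CPM (SD, n = 3), above that in UMSCC8.

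Among the 3096 shRNAs compared, few were undetected in all plates of 1 line. The 81 shRNAs below the minimum of 10 counts, of which 39 had 0 counts in all 6 libraries, are left out here. Of those compared, 15 shRNAs were at 0 in all 3 UMSCC1 plates. These had between 10, the minimum for comparison, and 106 counts summed over UMSCC8, with a median of 21. Only 1 of them was called, and 7 were counted in all 3 UMSCC8 plates. In the other 6 UMSCC1 libraries, which had received an inhibitor, the 15 shRNAs had 285 counts together, and 4 stayed at 0 in all 9 UMSCC1 libraries. There were 4 shRNAs at 0 in all 3 UMSCC8 plates, with 10 to 14 counts summed over UMSCC1, and 0 of them were called. These 19 passed the minimum of 10 counts only through the line in which they were counted, so that their direction is no result.

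The plates treated with an inhibitor gave separate libraries, which the choice of the 45 shRNAs did not use, from the same transduced cells, so that differences set at transduction or selection are shared. Of the 10 shRNAs called higher in UMSCC1 with DMSO, all 10 were higher on the gefitinib plates and 9 were called there, where 4.57% of the shRNAs tested were called higher. Of the 35 called lower, 33 were lower on the gefitinib plates and 26 were called, where 6.78% were called lower. The 90% and 74.3% of these calls found again on the gefitinib plates were above those background shares. The median log2 fold change was 1.20 for the higher group on the gefitinib plates, against 1.64 with DMSO, and -2.10 for the lower group, against -2.75 with DMSO. Among all shRNAs of the gefitinib plates, 46 were called higher and 95 lower without UMSCC8 replicate 1, and 69 were called higher without UMSCC1 replicate 3.

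The AZD8931 plates were the other such set. All 10 shRNAs of the higher group were higher in UMSCC1 and 8 were called, where 5.85% of the shRNAs tested were called higher. All 35 of the lower group were lower in UMSCC1 and 25 were called, where 7.24% were called lower. The medians were 1.84 and -2.25 on the log2 scale. None of the 45 was called in the opposite direction on either set of plates. When the DMSO calls were made without UMSCC8 replicate 1, an alternative added after seeing the data, 29 of 42 calls were called in the same direction with gefitinib and 31 of 42 with AZD8931. On the AZD8931 plates the calls depended on single plates, since leaving out UMSCC8 replicate 1, 2 or 3 gave 13, 0 and 4 higher and 50, 2 and 23 lower, and leaving out UMSCC1 replicate 1 gave 321 higher and 376 lower.

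More shRNAs were called between the lines on the inhibitor plates than on the DMSO plates. There were 141 higher and 209 lower with gefitinib, and 181 higher and 224 lower with AZD8931, against 10 and 35 with DMSO. The fitted coefficient of variation was 0.453 on the gefitinib plates and 0.497 on the AZD8931 plates, against 0.544 on the DMSO plates, and the counts were thus compared at unequal spread. The difference of the line difference between agents was tested directly in a fit of the 18 libraries of both lines, and 0 of 3096 shRNAs (0%) passed for gefitinib or for AZD8931 against DMSO (edgeR). At an unadjusted p under 0.05, 84 were higher and 106 lower for gefitinib and 120 higher and 190 lower for AZD8931. DESeq2 called 0 and 1 shRNAs, and limma-voom called 0 and 0.

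shRNAs called with both inhibitors and not with DMSO leaned the same way on the DMSO plates. There were 40 such shRNAs higher in UMSCC1, of which 39 had the same sign with DMSO, with a median log2 fold change of 0.85. There were 56 such shRNAs lower in UMSCC1, of which 55 had the same sign, with a median of -1.68. With DMSO, 26 of the 40 and 33 of the 56 had an unadjusted p under 0.05. Over all 3096 shRNAs, 49.7% were higher and 50.3% lower in UMSCC1, and 8.24% and 8.27% were so at an unadjusted p under 0.05. The inhibitor plates came from the same transduced cells, so that this describes the pools of the lines.

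The levels of the called shRNAs in the third line are given as a description, since shRNAs chosen for being far apart in UMSCC1 and UMSCC8 leave a wide range between them. The 10 shRNAs of the higher group had a median of 1146 CPM in UMSCC1, 297 CPM in UMSCC8 and 648 CPM in UMSCC25, and 8 of the 10 had a UMSCC25 mean between those of the other lines. The 35 of the lower group had medians of 48.2, 439 and 237 CPM in these lines, and 28 of 35 lay between, as did 38.2% of all tested shRNAs. In UMSCC25, 5 of the lower group lay above both other lines and 2 below both. Of the higher group, 2 lay below both. The median over all tested shRNAs was 155, 158 and 154 CPM.

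Consecutive clone numbers, which in this library often belong to shRNAs against the same gene, showed no shared direction over all pairs. Which pairs share a gene was not used here, so that whether shRNAs against the same gene share a direction was not tested. Over 2660 pairs of consecutive identifiers the log2 fold changes correlated at r = -0.01 and had the same sign in 50.2%. Most of these fold changes did not pass the test. In 0 pairs were both shRNAs called in the same direction. With 10 shRNAs called higher and 35 called lower among 3096, this count cannot decide the question, since so few shRNAs were called. Of the 14 shRNAs next to one called higher, 4 were higher, and of the 53 next to one called lower, 23 were lower.

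The 6 identifiers with a known target gene are directed against the TGF-β receptors, and their knockdown was not measured in these data. TGFBR1 and TGFBR2 encode the type I and type II receptors, serine/threonine kinases that form a complex on binding TGF-β and signal through Smad proteins. TGFBR1 lies on chromosome 9 at 99104038 to 99154192 and TGFBR2 on chromosome 3 at 30606502 to 30694142, both on the plus strand (GRCh38, GENCODE release 29). The position of each shRNA target within these genes was not analysed here. None of the 6 passed the test between the lines with DMSO.

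TRCN0000039774, against TGFBR1, had the largest difference of the 6. It had 87, 12 and 7 counts in UMSCC1 replicates 1 to 3, against 0, 5 and 5 counts in UMSCC8 replicates 1 to 3. Every UMSCC1 plate was above every UMSCC8 plate, with UMSCC1 replicate 1 far above the others. The log2 fold change was 3.64 (SE 1.31, unadjusted p = 0.0148, adjusted p = 0.190, edgeR), and the mean was 88.1 ± 93.3 CPM in UMSCC1 and 6.63 ± 5.83 CPM in UMSCC8 (SD, n = 3 each). Over the alternatives the adjusted p was 0.0436 to 0.619, and it passed with DESeq2 only. Without UMSCC1 replicate 1 the log2 fold change was 2.30. The log2 fold change was -1.31 on the gefitinib plates and 0.01 on the AZD8931 plates, where neither passed (adjusted p = 0.596 and 0.998, edgeR).

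The other TGFBR1 shRNAs overlapped between the lines. TRCN0000039775 had 60, 35 and 20 counts in UMSCC1 against 101, 8 and 26 in UMSCC8, a log2 fold change of 0.24 (SE 0.85, adjusted p = 0.933, edgeR). TRCN0000039776 had 14, 7 and 7 counts in UMSCC1 against 1, 33 and 38 in UMSCC8, a log2 fold change of -0.90 (SE 1.21, edgeR adjusted p = 0.767). TRCN0000039777 had 37, 56 and 36 counts in UMSCC1 against 81, 49 and 103 in UMSCC8, a log2 fold change of -0.19 (SE 0.60, edgeR adjusted p = 0.929). For TRCN0000039776 the overlap came from the single count of UMSCC8 replicate 1, and the sign of TRCN0000039775 and of TRCN0000039777 turned when single plates were left out.

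The TGFBR2 shRNAs were also called in neither direction. TRCN0000040008 had 11, 23 and 14 counts in UMSCC1 against 150, 36 and 32 in UMSCC8, and 150 of these 218 counts came from UMSCC8 replicate 1. Its log2 fold change was -1.57 (SE 0.83, adjusted p = 0.358, edgeR), and leaving out 1 plate gave -2.57 without UMSCC1 replicate 2 to -0.41 without UMSCC8 replicate 1. TRCN0000040011 had 50, 24 and 25 counts in UMSCC1 against 47, 48 and 97 in UMSCC8, a log2 fold change of -0.50 (SE 0.60, edgeR adjusted p = 0.739). Its plates overlapped between the lines, and those of TRCN0000040008 did so in CPM, where UMSCC1 replicate 2 reached 110.5 CPM against 78.8 and 57.4 CPM in UMSCC8 replicates 2 and 3.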

How the data were processed

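The values are raw read counts per shRNA in 1 table that the authors deposited without normalization, covering 27 libraries of cassettes amplified by PCR from genomic DNA. The submitters' processing notes name Bowtie 1.0.0, edgeR and hg19 without their roles, and the study's methods cite BiNG!S for the shRNA reads. All columns were used or set beside the comparison, and the labels gave each column its line, agent and replicate number. The labels disagree on the inhibitor doses, which are therefore not given here.

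Counts of the 6 DMSO libraries were tested with edgeR 4.0.16 (R 4.3.3) by its quasi-likelihood test with robust fitting, TMM factors and Benjamini-Hochberg adjustment over all shRNAs tested, with a threshold of 0.05 and a minimum of 10 counts over the 6 libraries. The fit gave the fold changes, which are UMSCC1 over UMSCC8, and CPM used TMM factors over all 27 libraries. The same test was run on the gefitinib and AZD8931 plates, and the change of the line difference with each agent was tested over the 18 libraries of both lines. Library measures were compared by exact permutation tests, and undetected shRNAs were computed by formula at an equal total count, which leaves the other shRNAs fewer counts where 1 shRNA takes much of a library. Amplified reads that carry no molecular identifier can be copies of 1 molecule, so that the floor of 3 counts covers counting error only. The scripts were tested on simulated data.

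The identifiers named are the 6 that target TGFBR1 or TGFBR2 and 2 called in each direction: the largest change counted in all 6 libraries, and the most abundant at 0 in the other line or, where there was none, the next largest change. The leading shRNAs of the 6 libraries, 3 identifiers, were added after their values were seen. The shRNAs, the lists and this rule were chosen with earlier results of these data known. Alternatives were other size factors, filters, DESeq2 1.42.0, edgeR's exact test, limma-voom (limma 3.58.1), fits over 18 or 27 libraries, the replicate number as a block and leaving out each library. TGFBR positions are from GENCODE release 29 (GRCh38), and no coordinate was converted.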

Additional observations from a re-analysis of the deposited data

How the results depend on the processing

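Against 10 shRNAs called higher and 35 called lower in UMSCC1 with DMSO, DESeq2 called 69 higher and 110 lower, edgeR's exact test 38 and 87, and limma-voom 8 and 17. Fits over 18 libraries gave 30 and 51, and over 27 libraries 58 and 98. Scaling by total counts gave 3 higher and turned TRCN0000039775 to -0.011 on the log2 scale. RLE size factors, TMM without the 7 most abundant shRNAs, no filter and filterByExpr gave 8 to 12 higher and 33 to 38 lower. The 45 shRNAs kept their direction in every alternative, which the absence of overlap between their plates fixes for the left-out plates, and 21 of them remained called by limma-voom and 44 or 45 by DESeq2, the exact test and the larger fits. Leaving out 1 plate gave 0 to 7 higher and 2 to 35 lower with DMSO, 46 to 161 higher and 95 to 212 lower with gefitinib, and 0 to 321 higher and 2 to 376 lower with AZD8931. The same step gave -33.8 to 108 for the difference in undetected shRNAs, -0.25 to 1.77 for TRCN0000039775 and -1.06 to 0.14 for TRCN0000039777. DESeq2 called 310 higher and 378 lower with AZD8931, and 1 shRNA for the change of the line difference with AZD8931. Whether the replicate numbers pair the plates was not settled. Deviations of same-numbered UMSCC1 and UMSCC8 plates correlated at -0.05, 0.14 and 0.18 for replicates 1 to 3. UMSCC1 replicates 2 and 3 each correlated best with the same-numbered UMSCC8 plate. UMSCC1 replicate 1 correlated best with UMSCC8 replicate 2, at 0.10. A replicate block gave 24 higher and 45 lower with DMSO. With a median of 28 to 83 counts per shRNA and 3 plates per line, small differences of rare shRNAs could not be resolved. The cause of these shifts was not tested.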
